A study of Mus musculus with 9 samples.

Results

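The genes described here are 38 interferon response and antigen processing genes, named from the platform annotation and read from the brightest probe set that carries a single gene symbol. Of the 38, 33 had such a probe set, among 19937 genes in all. Isg15, Gbp2, H2-K1 and H2-D1 share their probe sets with other symbols and Ifi44 was not analysed here, so these 5 have no values below. Levels are log2 values, on which a difference of 1 is a doubling of the measured signal, and 27 of the 33 genes passed the filter on dim genes, a mean of at least 7.24.

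The RNA was that of MEFs, fibroblasts cultured from mouse embryos, of p27CK (CK), p27 knockout (KO) and wild-type (WT) genotype, with 3 arrays each. The gene altered, Cdkn1b, encodes p27, an inhibitor of cyclin-dependent kinases. In published work p27CK is a p27 protein that cannot bind cyclins and their kinases, while the labels give the name alone. All cells were kept in serum-free medium for 72 h after culture in 10% serum, so every group is serum-starved, and the labels name no interferon treatment. The extraction protocol of all 9 samples names delta51 mice beside wild-type ones and does not say which cells these are. Nothing in the labels tells whether replicates were separate embryos or cultures. The p-values therefore measure only how far these arrays spread, possibly for technical reasons, and genotype and culture of origin cannot be told apart.

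Type I interferons are secreted by cells that sense viral nucleic acid. Type I interferon binds its receptor, the kinases Jak1 and Tyk2 phosphorylate STAT proteins, and a complex that includes STAT2 and IRF9 binds the interferon-stimulated response element (ISRE) in the promoters of many antiviral genes. Interferon gamma signals through Jak1 and Jak2 to promoters with the gamma activated site (GAS), and strongly induces the genes that cut proteins into peptides and load them on MHC class I molecules. Fibroblasts express many of these genes at a low tonic level without added interferon.

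The promoters of these genes were read from RefSeq windows of build GRCm38.p6, from 250 bases before to 50 after each start site, which were held for 31 of the 38 genes. The ISRE core, searched on both strands as GAAA, 2 bases of any kind and GAAA, was present for 14 of the 31 (45.2%) and for 3.99% of the 27025 genes in the table. The GAS letters, TTC, 3 bases of any kind and GAA, were present for 9 of the 31 (29.0%) and for 9.55% of all genes. A loose pattern for NF-kB, GGG, 5 bases of any kind and CC, was present for 21 of the 31 (67.7%) and for 53.5% of all genes. A match describes letters and does not show that a factor binds there. Stretches upstream of the start site are printed below, on the strand of the gene, for some of the genes compared in this report, picked by hand. Upstream matches of other genes are not printed, such as the ISRE core of Rsad2 and the GAS letters of Samhd1, Psmb8, Ifit2 and Eif2ak2. Capitals mark the ISRE core, in Bst2 the overlapping GAS and ISRE letters, and in Irf1 the GAS letters.
Ifit1, chr19:34640770-34640828, plus strand: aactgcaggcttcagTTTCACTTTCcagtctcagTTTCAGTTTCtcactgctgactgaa
Ifit3, chr19:34583358-34583431, plus strand: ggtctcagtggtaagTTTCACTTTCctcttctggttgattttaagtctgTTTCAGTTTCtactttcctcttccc
Bst2, chr8:71537572-71537623, minus strand: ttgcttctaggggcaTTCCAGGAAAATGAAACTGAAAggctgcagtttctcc
Gbp3, chr3:142559984-142560029, plus strand: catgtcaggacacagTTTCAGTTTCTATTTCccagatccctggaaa
Oas1a, chr5:120907526-120907560, minus strand: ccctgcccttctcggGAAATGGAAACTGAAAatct
Stat2, chr10:128270261-128270300, plus strand: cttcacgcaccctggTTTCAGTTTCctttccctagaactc
B2m, chr2:122147533-122147572, plus strand: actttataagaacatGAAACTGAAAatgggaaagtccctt
Irf1, chr11:53769909-53769947, plus strand: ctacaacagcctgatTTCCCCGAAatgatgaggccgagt

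Tap1 and Psmb9 start on opposite strands from 1 stretch of 225 bases on chromosome 17, which is shown whole because both genes were measured. It is given on the strand of Tap1, so that Psmb9 starts just before its first base and Tap1 just after its last, and capitals mark the NF-kB pattern. Neither the ISRE core nor the GAS letters were found in the windows of these genes.
Tap1 and Psmb9, chr17:34187331-34187555, plus strand: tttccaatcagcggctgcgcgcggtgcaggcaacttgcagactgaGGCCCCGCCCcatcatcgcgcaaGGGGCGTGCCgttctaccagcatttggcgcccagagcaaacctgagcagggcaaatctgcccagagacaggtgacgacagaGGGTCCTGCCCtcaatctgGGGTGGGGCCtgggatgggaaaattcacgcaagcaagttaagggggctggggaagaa

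Array medians lay between 7.29 and 7.40, and correlations between arrays of a genotype were 0.995 to 0.998. Cdkn1b read 11.10 ± 0.09 in CK, 7.38 ± 0.11 in KO and 11.46 ± 0.04 in WT (SD, n = 3), 4.09 lower in KO than in WT on the log2 scale. Fibroblast markers were bright, with 10 of 10 above the filter. Their summed levels were 16.56 to 16.63 in CK, 16.35 to 16.37 in KO and 16.58 to 16.65 in WT arrays (log2 of the summed signal). The surface marker Thy1 nonetheless read 11.69 in CK, 7.14 in KO, below the filter level, and 11.73 in WT. Of the 10, 1 was called higher and 7 lower in KO than in WT (80%), beside 51.2% of all tested genes called. In CK 2 were higher and 3 lower than in WT (50%), beside 62.9%. CK was above KO for 7 and below it for 2 (90%), beside 62.2%. Of 12 macrophage markers 2 passed the filter. These were Cd68, at 8.59 in CK, 7.99 in KO and 10.64 in WT, and Lyz2, at 7.59 in CK, 8.83 in KO and 6.90 in WT, while the pan-leukocyte marker Ptprc read 6.14 to 6.22. The summed macrophage level was 10.47 to 10.54 in CK, 10.56 to 10.74 in KO and 11.36 to 11.44 in WT arrays. Of all 12 macrophage markers, 3 differed by at least 1 on the log2 scale between KO and WT, 2 between CK and WT and 1 between CK and KO. In each comparison with WT these include a marker below the filter. Of 11 lymphocyte and dendritic cell markers 1 passed, with summed levels of 9.74 to 9.85 over the 9 arrays, and of 6 epithelial markers 2, with summed levels of 9.47 to 9.57 in CK, 9.63 to 9.70 in KO and 9.49 to 9.61 in WT. Of 8 endothelial markers 2 passed, with summed levels of 9.73 to 9.77 in CK, 9.72 to 9.76 in KO and 10.18 to 10.32 in WT. Of these 2, Tek, an endothelial receptor, read 6.51 in CK, 6.80 in KO and 8.77 in WT. The other, Vwf, read 7.46 in CK and 7.37 in KO and was not called in any comparison. The part of these differences in the results below was not tested, and in RNA from whole cultures fewer cells of a type and less RNA per cell cannot be told apart.

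The arrays of a genotype were not alike on these genes. Among the 27 tested genes, CK replicate 3 was the lowest CK array for 23 and the highest for 0, and its median deviation from the CK mean was -0.15. CK replicate 1 was the highest for 20, with a median deviation of 0.18. Over all 11962 tested genes, CK replicate 3 was the lowest for 26.8% and its median deviation was 0.02. In KO, replicate 3 was the lowest array for 19 of the 27 genes, against 43.6% of all genes, and in WT replicate 3 was the lowest for 18, against 49.6%. Of 43 other interferon-induced genes, listed further below, CK replicate 3 was the lowest for 26. The median SD of the 27 genes was 0.17 in CK, 0.09 in KO and 0.09 in WT, beside 0.08, 0.07 and 0.07 over all tested genes. The largest SDs in CK were those of Ifit1 at 0.68, Oasl2 at 0.55, Dhx58 at 0.47 and Usp18 at 0.42. Results that change without 1 array are therefore given with that array named.

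**Figure D1:**
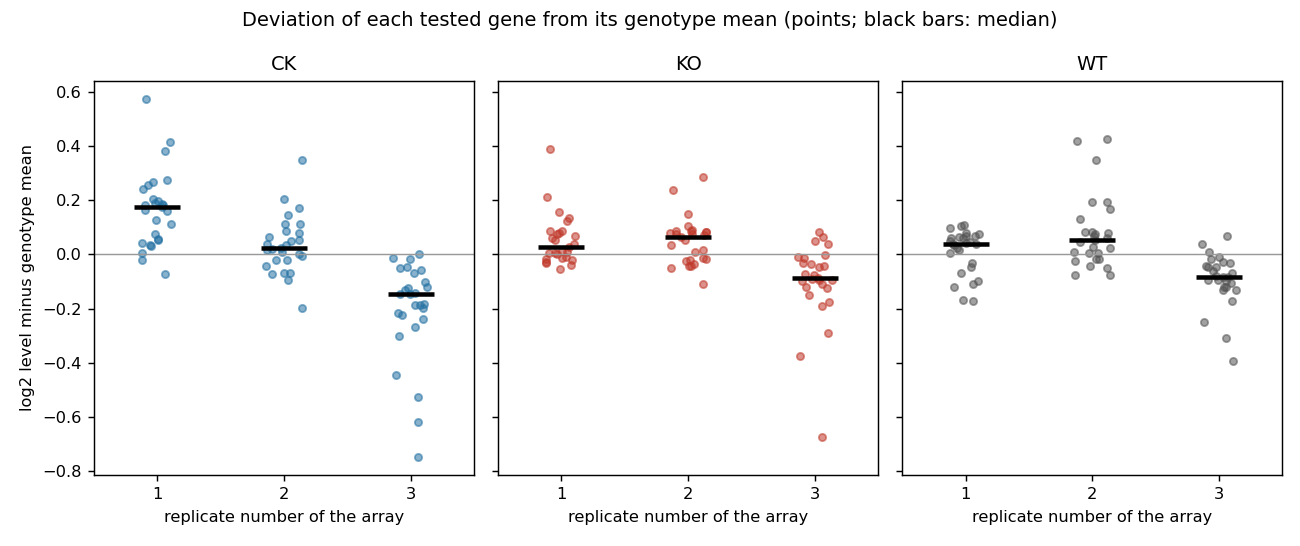
Deviation of each of the 27 tested genes from its genotype mean (vertical axis, log2) on the 3 arrays of CK, KO and WT (horizontal axis, replicate number), with black bars at the median. In CK the median deviation was 0.18 on replicate 1 and -0.15 on replicate 3, and replicate 3 held the lowest CK value of 23 genes.

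In CK cells several antiviral genes were higher than in WT while both genes of peptide transport and 4 of 5 tested interferon-induced genes with other roles (Xaf1, Parp9, Ifi35 and Trim21) were lower. Of 27 tested genes 9 were higher, 11 were lower and 7 were not called by limma at a Benjamini-Hochberg adjusted p under 0.05. That is 74.1% of the tested members, where the same rule called 62.9% of all tested genes (30.7% higher, 32.1% lower). In KO cells 6 were higher than in WT, 9 lower and 12 not called, or 55.6%, beside 51.2% of all tested genes (26.6% higher, 24.6% lower). Set against KO directly, CK was higher for 11 and lower for 11, or 81.5%, beside 62.2% (29.5% higher, 32.7% lower). The F-test over the 3 genotypes called 25 of the 27, beside 76.1% of all tested genes.

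Arrays of both genotypes did not overlap for 22 of the 33 genes between CK and WT, 19 between KO and WT and 23 between CK and KO, beside 48.5%, 43.5% and 48.8% of all 19937 genes.

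Over the 33 genes with a probe set, the median log2 difference was -0.07 for CK minus WT, -0.05 for KO minus WT and 0.13 for CK minus KO, beside -0.01, 0.01 and -0.01 over all 19937 genes. Sizes regardless of direction had medians of 0.42, 0.34 and 0.50 over the 27 tested genes in these comparisons, beside 0.28, 0.20 and 0.27 over all tested genes. Differences of at least 1 were measured for 4 genes between CK and WT (Ifih1, Usp18, Ifit3 and Xaf1), 3 between KO and WT (Usp18, Ifit1 and Oasl2) and 3 between CK and KO (Usp18, Ifit1 and Oasl2), beside 10.8%, 8.77% and 12.4% of all tested genes that were called with a difference of that size. Each pair of comparisons shares the 3 arrays of 1 genotype, so their calls are set side by side and not counted as separate support. In both mutants Ifih1, Ifit2, Ifit3 and Samhd1 were higher than in WT and Stat2, Xaf1 and Psmb9 lower. Trim25, Usp18 and Oasl2 were higher in CK and lower in KO, and Ddx58 was lower in CK and higher in KO.

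**Figure D2:**
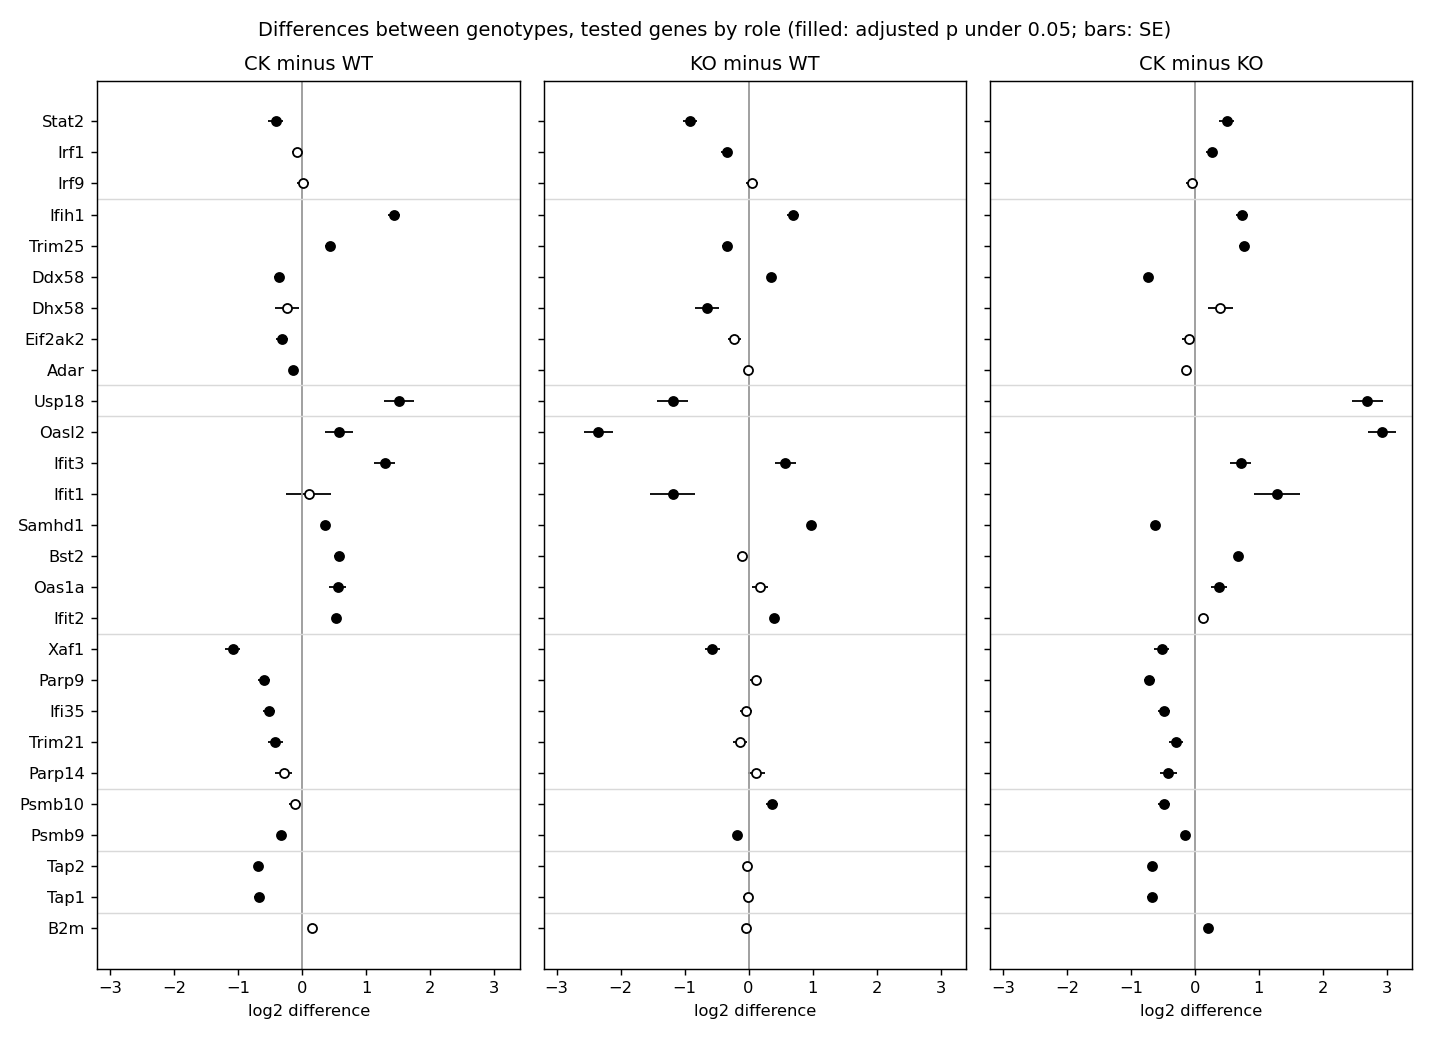
Log2 differences (horizontal axes) of the 27 tested genes, grouped by role from transcription factors at the top to MHC class I at the bottom, for CK minus WT, KO minus WT and CK minus KO. Points are differences with SE bars, filled where the adjusted p was under 0.05, and Usp18 and Oasl2 lie farthest to the right in CK minus KO at 2.70 and 2.92.

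Among the transcription factors, Stat2 was lower in both mutants while Irf9, its partner in the ISRE-binding complex, was not called in any comparison. Stat2 read 10.34, 10.06 and 9.84 in CK, 9.64, 9.65 and 9.46 in KO, and 10.52, 10.58 and 10.39 in WT. No 2 genotypes overlapped, and the order was WT, CK, KO from high to low. Relative to WT it fell by 0.42 in CK (SE 0.11, limma adjusted p = 0.00834) and by 0.92 in KO (adjusted p = 6.46e-05), and CK was 0.50 above KO (adjusted p = 0.00299). Irf9 read 10.09 ± 0.21 in CK, 10.13 ± 0.11 in KO and 10.08 ± 0.03 in WT (SD, n = 3).

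Irf1, a factor induced by interferon gamma that acts on antigen processing genes, read 9.56, 9.67 and 9.33 in CK, 9.23, 9.34 and 9.21 in KO, and 9.70, 9.58 and 9.52 in WT. The KO arrays lay below every WT array, and CK overlapped both. It fell by 0.34 in KO (SE 0.09, limma adjusted p = 0.00693). CK differed from WT by -0.08 (adjusted p = 0.450) and was 0.26 above KO (adjusted p = 0.0212, and 0.0647, 0.0590, 0.0639 and 0.0838 without KO replicate 1, KO replicate 3, CK replicate 1 or CK replicate 2). Its dimmer probe set read 7.33 in CK, 7.06 in KO and 7.13 in WT. Irf7, which amplifies type I interferon production, was below the filter, at 8.12, 7.64 and 7.11 in CK, 6.96, 7.02 and 7.02 in KO, and 7.01, 7.21 and 7.02 in WT. CK replicate 3 of Irf7 lay within the WT range and the other CK arrays above it. In a fit without the filter, CK minus KO was 0.62 for Irf7 (limma adjusted p = 0.0355) and CK minus WT was 0.54 (adjusted p = 0.0621).

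The cytosolic RNA sensors went different ways. Ifih1, the sensor MDA5 that binds long double-stranded RNA, read 8.80, 8.65 and 8.40 in CK, 7.89, 7.97 and 7.78 in KO, and 7.15, 7.26 and 7.14 in WT. No genotypes overlapped, and WT lay close to the filter level of 7.24. It was 1.43 higher in CK (SE 0.10, limma adjusted p = 3.96e-07) and 0.70 higher in KO than in WT (adjusted p = 0.000129), and 0.73 higher in CK than in KO (adjusted p = 6e-05).

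Ddx58, the sensor RIG-I that binds short RNA with a triphosphate end, read 10.69, 10.66 and 10.49 in CK, 11.42, 11.35 and 11.25 in KO, and 11.04, 10.96 and 10.93 in WT. Here too no genotypes overlapped, but with KO highest and CK lowest. The difference from WT was -0.37 in CK (SE 0.07, limma adjusted p = 0.000919) and 0.36 in KO (adjusted p = 0.00149), and CK minus KO was -0.72 (adjusted p = 6.15e-06). Trim25, a ubiquitin ligase that activates RIG-I, ran the other way, at 9.68, 9.75 and 9.50 in CK, 8.88, 8.95 and 8.80 in KO, and 9.23, 9.29 and 9.12 in WT. All its CK arrays lay above the WT arrays and all its KO arrays below them. The difference was 0.43 in CK (SE 0.08, adjusted p = 0.000649), -0.34 in KO (adjusted p = 0.00375) and 0.77 between CK and KO (adjusted p = 8.57e-06).

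Dhx58, the sensor LGP2, read 7.55, 7.72 and 6.84 in CK, 7.10, 6.96 and 6.86 in KO, and 7.57, 7.79 and 7.50 in WT. KO lay below WT on every array, and CK replicate 3 lay below the KO arrays while the other CK arrays lay with WT. It fell by 0.65 in KO (SE 0.19, limma adjusted p = 0.0151, and 0.0588 without WT replicate 2). CK differed from WT by -0.24 (adjusted p = 0.284) and from KO by 0.40 (adjusted p = 0.0883, and 0.000429 without CK replicate 3).

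Eif2ak2, the kinase PKR that halts translation on double-stranded RNA, read 9.15 ± 0.18 in CK, 9.24 ± 0.13 in KO and 9.46 ± 0.11 in WT (SD, n = 3). It fell by 0.32 in CK (limma adjusted p = 0.0183, and 0.0632, 0.0717 and 0.0757 without CK replicate 2, CK replicate 3 or WT replicate 2). In KO it differed from WT by -0.22 (adjusted p = 0.0894, and 0.0440 without CK replicate 1). Adar, which edits double-stranded RNA, read 9.63 ± 0.05 in CK, 9.77 ± 0.01 in KO and 9.77 ± 0.07 in WT. It fell by 0.14 in CK (limma adjusted p = 0.0449), a call that was lost without KO replicate 1, 2 or 3, CK replicate 2 or 3, or WT replicate 1 or 3 (adjusted p between 0.0531 and 0.162). CK minus KO was -0.13 (adjusted p = 0.0549, and 0.0433 and 0.0448 without CK replicate 1 or WT replicate 1).

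Usp18, the protease that removes ISG15 from proteins and dampens the type I interferon receptor, had the widest spread between genotypes after Oasl2. It read 10.20, 9.88 and 9.37 in CK, 7.25, 7.35 and 6.74 in KO, and 8.13, 8.73 and 8.05 in WT. No genotypes overlapped, the CK arrays were the highest, and the KO arrays lay around the filter level of 7.24. It was 1.51 higher in CK than in WT (SE 0.24, limma adjusted p = 0.000262), 2.85-fold in measured signal. In KO it fell by 1.19 (adjusted p = 0.00185), and CK was 2.70 above KO (adjusted p = 3.23e-06). Usp18 lies on chromosome 6, as does Cdkn1b, and whether its position bears on these differences was not tested.

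Oasl2, a relative of the 2′-5′ oligoadenylate synthetases that carries ubiquitin-like domains, read 10.52, 10.30 and 9.48 in CK, 7.22, 7.33 and 6.99 in KO, and 9.43, 9.72 and 9.43 in WT. The KO arrays lay more than 2 log2 units below every other array and near the filter level, and CK replicate 3 lay within the WT range. It fell by 2.35 in KO (SE 0.22, limma adjusted p = 8.02e-06), 5.09-fold in measured signal, and CK was 2.92 above KO (adjusted p = 9.77e-07). CK was 0.57 above WT (adjusted p = 0.0438), a call that was lost without KO replicate 1 or 2, CK replicate 1 or 2 or WT replicate 1 or 3 (adjusted p between 0.0515 and 0.172). That difference was 0.36 without CK replicate 1 and 0.88 without CK replicate 3 (adjusted p = 0.172 and 0.000237).

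The 3 IFIT genes, whose proteins bind foreign RNA and lie side by side on chromosome 19, did not move alike. Ifit1 read 9.79, 9.39 and 8.46 in CK, 8.32, 8.21 and 7.25 in KO, and 9.00, 9.54 and 8.81 in WT. Its KO arrays were below those of CK and of WT, and CK and WT overlapped. It fell by 1.19 in KO (SE 0.36, limma adjusted p = 0.0175, and 0.0585 and 0.0710 without KO replicate 3 or WT replicate 2). CK was 1.29 above KO (adjusted p = 0.00933) and differed from WT by 0.10 (adjusted p = 0.830).

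Ifit3 read 11.19, 10.89 and 10.89 in CK, 10.36, 10.36 and 10.10 in KO, and 9.74, 10.05 and 9.31 in WT. No genotypes overlapped, and WT was the lowest. It was 1.29 higher in CK than in WT (SE 0.17, limma adjusted p = 5.61e-05), 0.57 higher in KO than in WT (adjusted p = 0.0144; 0.37 with adjusted p = 0.0386 without WT replicate 3) and 0.72 higher in CK than in KO (adjusted p = 0.00321). Ifit3 has a close copy, Ifit3b, whose own probe set was dim at 6.47 in CK, 6.43 in KO and 6.19 in WT, and signal may be split between copies. Ifit2 read 9.97 ± 0.10 in CK, 9.84 ± 0.06 in KO and 9.44 ± 0.08 in WT (SD, n = 3), and was higher than WT by 0.53 in CK (limma adjusted p = 4.83e-05) and by 0.40 in KO (adjusted p = 0.000515). The 2 ISRE cores printed for Ifit1 and for Ifit3 stand before genes that differed in direction between KO and WT.

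Samhd1, which destroys the nucleotides that reverse transcription needs, was higher in both mutants and most in KO. It read 11.13, 11.16 and 11.15 in CK, 11.75, 11.71 and 11.83 in KO, and 10.79, 10.71 and 10.86 in WT. The genotypes did not overlap and the SDs were 0.02, 0.06 and 0.07. It was 0.36 above WT in CK (SE 0.06, limma adjusted p = 0.000217) and 0.98 above WT in KO (adjusted p = 1.36e-07), and CK differed from KO by -0.62 (adjusted p = 3.65e-06).

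Bst2, the protein tetherin that holds budding virus on the cell surface, read 9.50, 9.58 and 9.32 in CK, 8.84, 8.75 and 8.78 in KO, and 8.96, 8.92 and 8.80 in WT. CK lay above every other array while KO and WT overlapped. It was 0.58 above WT in CK (SE 0.07, limma adjusted p = 5.77e-05) and 0.68 above KO (adjusted p = 1.6e-05), and KO differed from WT by -0.11 (adjusted p = 0.269). Oas1a, a 2′-5′ oligoadenylate synthetase with close copies, was near the filter, at 7.56 ± 0.24 in CK, 7.19 ± 0.14 in KO and 7.01 ± 0.18 in WT (SD, n = 3). CK was 0.55 above WT (limma adjusted p = 0.00336) and 0.37 above KO (adjusted p = 0.0266, and between 0.0656 and 0.104 without KO replicate 2, KO replicate 3, CK replicate 1 or CK replicate 2). The mean of Oas1a over all arrays, 7.25, passed the filter only through CK, since its KO and WT means lay below it. Its calls are therefore not independent of the filter, and the counts of genes higher in CK include them. Both calls were kept in the fit without the filter.

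The remaining antiviral effectors were below the filter. Gbp3, an interferon-induced GTPase, read 8.19, 7.63 and 7.19 in CK, 6.79, 6.81 and 6.71 in KO, and 7.12, 7.21 and 6.998 in WT. KO lay below the other arrays and CK replicate 3 lay within the WT range. Rsad2, the radical SAM enzyme viperin, read 6.67 in CK, 6.38 in KO and 6.34 in WT, and Mx1 and Mx2, dynamin-like antiviral GTPases, read between 5.51 and 5.85 on every array, with means in the lowest 12.9% of genes. In a fit without the filter, Rsad2 was called between CK and WT (limma adjusted p = 0.0129) and Gbp3 was not (adjusted p = 0.0530). Between CK and KO that fit called Gbp3 (adjusted p = 0.00551), Mx2 (0.0174, a difference of 0.19) and Rsad2 (0.0229), but not Mx1 (0.862).

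**Figure D3:**
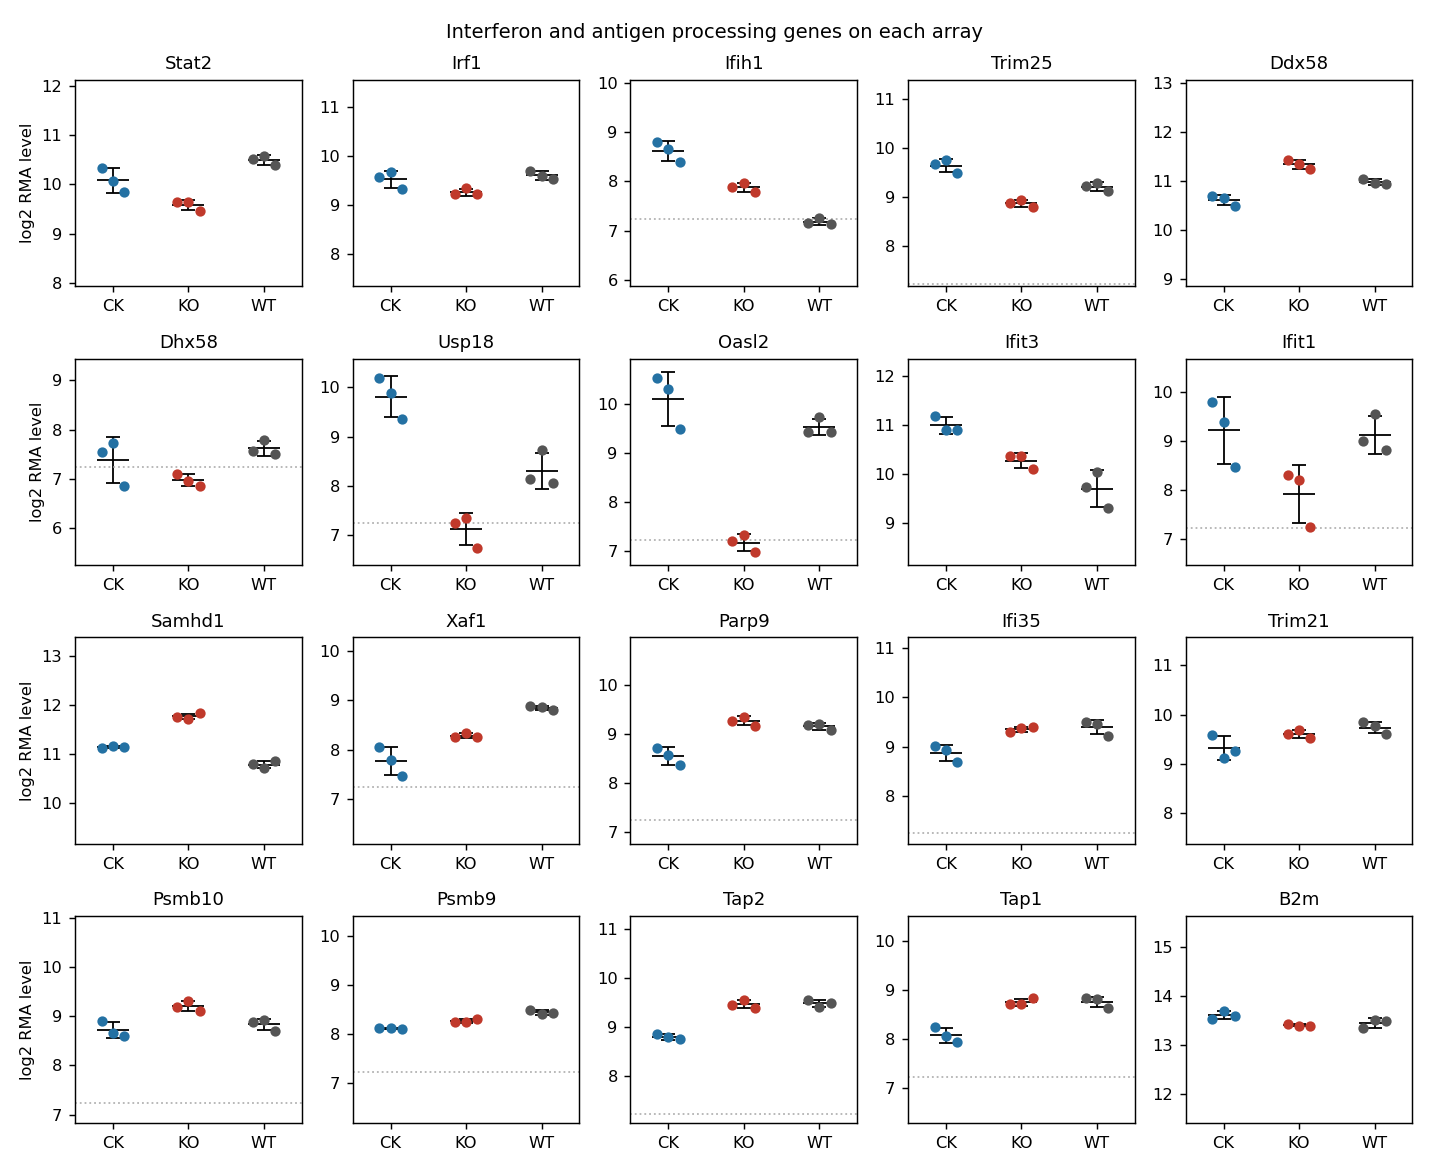
Levels (vertical axes, log2) of 20 genes, up to 4 of each role with the largest range between genotypes, on the CK, KO and WT arrays from left to right. Points are arrays, bars are the mean and SD of 3 arrays, every panel spans the same log2 range, and the dotted line is the filter level of 7.24, around which the KO arrays of Usp18 and Oasl2 lie.

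Of 5 tested interferon-induced genes with other roles, 4 were lower in CK than in WT and 5 lower than in KO. Of all tested genes, 32.1% and 32.7% were called lower in these comparisons. The genes come from a list chosen with earlier results known, and the group as a whole was not tested. Of 43 other interferon-induced genes, listed further below, 18 were higher and 10 lower in CK than in KO. Xaf1, which counters the apoptosis inhibitor XIAP, read 8.04, 7.79 and 7.46 in CK, 8.26, 8.34 and 8.25 in KO, and 8.89, 8.86 and 8.81 in WT. No genotypes overlapped, and CK was the lowest. It fell by 1.09 in CK (SE 0.12, limma adjusted p = 1.46e-05) and by 0.57 in KO (adjusted p = 0.00207), and CK minus KO was -0.52 (adjusted p = 0.00274).

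Parp9, an ADP-ribosyltransferase family member that works with the ubiquitin ligase Dtx3l, read 8.71, 8.57 and 8.36 in CK, 9.27, 9.35 and 9.16 in KO, and 9.19, 9.20 and 9.07 in WT. Ifi35, an interferon-induced leucine zipper protein, read 9.00, 8.93 and 8.69 in CK, 9.30, 9.37 and 9.39 in KO, and 9.50, 9.45 and 9.22 in WT. For both genes every CK array lay below the KO and WT arrays, while KO and WT overlapped. Relative to WT, Parp9 fell by 0.60 in CK (SE 0.09, limma adjusted p = 0.000154). Ifi35 fell by 0.52 in CK (adjusted p = 0.000587). Neither was called between KO and WT, with differences of 0.11 for Parp9 (adjusted p = 0.335) and -0.04 for Ifi35 (adjusted p = 0.739).

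Trim21, a cytosolic antibody receptor and ubiquitin ligase, read 9.59, 9.12 and 9.25 in CK, 9.61, 9.70 and 9.52 in KO, and 9.85, 9.76 and 9.61 in WT. CK lay below WT and overlapped KO. It fell by 0.42 in CK relative to WT (SE 0.11, limma adjusted p = 0.00732) and was -0.29 from KO (adjusted p = 0.0425), a call lost without any 1 of the arrays KO 1 or 2, CK 2 or 3, or WT 1 or 2 (adjusted p between 0.0512 and 0.163; the difference was -0.19 without CK replicate 2). Parp14, an ADP-ribosyltransferase, read 7.78 ± 0.22 in CK, 8.20 ± 0.26 in KO and 8.07 ± 0.07 in WT (SD, n = 3). CK minus KO was -0.41 (limma adjusted p = 0.0205), lost without KO replicate 1 or 2 or CK replicate 2 or 3 (adjusted p between 0.0603 and 0.0844). CK minus WT was -0.29 (adjusted p = 0.0830, and 0.0303 and 0.0222 without KO replicate 3 or CK replicate 1).

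The RNA of both peptide transport genes, Tap1 and Tap2, was lower in CK than in WT and in KO, while transport itself was not measured. Of all tested genes, 32.1% were called lower in CK than in WT and 32.7% lower than in KO. TAP1 and TAP2 form the pump that carries peptides into the endoplasmic reticulum, where MHC class I molecules are loaded. Tap1 read 8.25, 8.07 and 7.94 in CK, 8.71, 8.71 and 8.84 in KO, and 8.83, 8.81 and 8.64 in WT. Tap2 read 8.86, 8.79 and 8.75 in CK, 9.45, 9.55 and 9.39 in KO, and 9.55, 9.41 and 9.50 in WT. For each gene CK lay below every other array, and KO and WT overlapped. Tap1 fell by 0.68 in CK relative to WT (SE 0.08, limma adjusted p = 4.6e-05) and was -0.67 from KO (adjusted p = 4.89e-05). Tap2 fell by 0.69 relative to WT (SE 0.06, adjusted p = 3.7e-06) and was -0.66 from KO (adjusted p = 4.52e-06). KO minus WT was -0.01 for Tap1 (adjusted p = 0.952) and -0.02 for Tap2 (adjusted p = 0.778).

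The 3 immunoproteasome subunits replace the standard catalytic subunits of the proteasome and change which peptides are cut. Psmb9, which shares its upstream stretch with Tap1, read 8.12, 8.12 and 8.10 in CK, 8.24, 8.24 and 8.32 in KO, and 8.49, 8.40 and 8.43 in WT. No genotypes overlapped, although the differences were small. It fell by 0.33 in CK (SE 0.05, limma adjusted p = 0.000189) and by 0.18 in KO (adjusted p = 0.0124, and 0.0523 without KO replicate 1). CK minus KO was -0.15 (adjusted p = 0.0217, and 0.0738 without KO replicate 3).

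Psmb10 read 8.91, 8.65 and 8.60 in CK, 9.19, 9.31 and 9.11 in KO, and 8.88, 8.92 and 8.70 in WT. KO lay above the others, and CK and WT overlapped. It was 0.37 above WT in KO (SE 0.09, limma adjusted p = 0.00688), CK minus KO was -0.48 (adjusted p = 0.000968) and CK minus WT was -0.11 (adjusted p = 0.307). Psmb8 was below the filter at 6.74 ± 0.14 in CK, 6.89 ± 0.04 in KO and 7.08 ± 0.09 in WT (SD, n = 3), and in a fit without the filter CK minus WT was -0.33 (limma adjusted p = 0.00440).

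B2m, the invariant light chain of MHC class I, was the brightest of these genes at a mean above 99.8% of all genes. It read 13.53, 13.69 and 13.59 in CK, 13.44, 13.39 and 13.40 in KO, and 13.34, 13.52 and 13.49 in WT. CK lay above the other arrays by a small margin. CK was 0.20 above KO (SE 0.06, limma adjusted p = 0.0186, and 0.0557 and 0.0691 without KO replicate 2 or CK replicate 2) and 0.16 above WT (adjusted p = 0.0540, and 0.0364 and 0.0447 without CK replicate 1 or WT replicate 2). KO minus WT was -0.04 (adjusted p = 0.601). Levels of different genes are not compared with each other beyond this, since probe sets differ in how they bind.

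Of 210 other genes of the pathway, in 9 lists, 178 had a probe set of their own and 128 were tested. In CK relative to WT 35 were higher and 50 lower (66.4%), in KO relative to WT 25 were higher and 48 lower (57.0%), and in CK relative to KO 48 were higher and 38 lower (67.2%). These shares stand beside 62.9%, 51.2% and 62.2% of all tested genes.

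Receptors and their kinases were mostly lower in both mutants. Of 8 tested, 0 rose and 7 fell in CK (87.5%), and 1 rose and 6 fell in KO (87.5%). CK was above KO for 3 and below it for 2 (62.5%). The shares of all tested genes were 62.9%, 51.2% and 62.2%. The interferon genes Ifnb1, Ifna2, Ifna4, Ifne and Ifng were below the filter, with genotype means between 5.62 and 6.95. Jak2 read 9.94 ± 0.04 in CK, 9.62 ± 0.03 in KO and 10.50 ± 0.03 in WT (SD, n = 3), and fell by 0.56 in CK (limma adjusted p = 2.94e-06) and by 0.88 in KO (adjusted p = 1.1e-07). The interferon gamma receptor chain Ifngr1 fell by 0.54 in CK and by 1.06 in KO, and its partner Ifngr2 fell by 0.46 in CK and by 0.71 in KO. Jak1 fell by 0.86 in CK (adjusted p = 3.58e-07), while KO minus WT was 0.03 (adjusted p = 0.648).

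Among 10 other STATs, IRFs and IRF kinases, 2 rose and 5 fell in CK (70%), and 4 rose and 0 fell in KO (40%). CK was above KO for 1 and below it for 7 (80%). All tested genes gave 62.9%, 51.2% and 62.2%. The IRF2 co-repressor Irf2bp2 rose by 0.78 in CK and by 0.38 in KO. In CK relative to WT Stat6, which relays interleukin-4 signals, fell by 0.57 and Ikbke, a kinase that activates IRFs, fell by 0.68. CK minus KO was -0.87 for Ikbke, -0.65 for Stat6 and -0.51 for Irf2bp1. In KO Irf2 rose by 0.40 and the NF-kB subunit Rela by 0.21.

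Of 17 genes of nucleic acid sensing 6 rose and 4 fell in CK (58.8%), and 4 rose and 4 fell in KO (47.1%), shares below those of all tested genes. CK was above KO for 8 and below it for 6 (82.4%), a share above the 62.2% of all tested genes. Aim2, a sensor of cytosolic DNA, read 8.77 ± 0.22 in CK, 7.52 ± 0.07 in KO and 6.55 ± 0.03 in WT (SD, n = 3), with WT below the filter level. It rose by 2.23 in CK (limma adjusted p = 1.43e-08) and by 0.97 in KO (adjusted p = 1.06e-05). Tlr3, a sensor of double-stranded RNA in endosomes, fell by 0.67 in CK and rose by 0.81 in KO, and CK minus KO was -1.49 (adjusted p = 3.85e-07). Zcchc3 fell by 0.77 in CK and by 0.58 in KO. Rnf135, a ubiquitin ligase of the RIG-I pathway, fell by 0.82 in CK, and CK minus KO was -0.89. For Mavs, the adaptor of RIG-I and MDA5, CK minus KO was -0.61.

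Of 43 other interferon-induced genes 9 rose and 20 fell in CK (67.4%), and 5 rose and 21 fell in KO (60.5%). Against KO, CK was higher for 18 and lower for 10 (65.1%), whereas the 5 tested genes of the like group among the 38 were lower. The same rule called 62.9%, 51.2% and 62.2% of all tested genes, so the shares of CK against WT and against KO lie near those of all genes. Ifitm3, which blocks entry of viruses, fell by 0.30 in CK and by 1.00 in KO (limma adjusted p = 0.00188 and 3.15e-07). Ube2l6, the enzyme that conjugates ISG15, read 9.03 ± 0.22 in CK, 9.09 ± 0.01 in KO and 10.29 ± 0.08 in WT (SD, n = 3), and fell by 1.26 in CK and by 1.19 in KO. Ifi27 fell by 0.21 in CK and by 0.57 in KO. Plscr2 fell by 1.30 in CK, and Casp12 rose by 0.79 in CK. CK minus KO was 1.35 for Slfn9, -1.22 for Plscr2 and 0.69 for Casp12. Of 9 other interferon-induced GTPases with a probe set 2 were tested, and in CK Gbp7 rose by 0.36 and Irgm1 fell by 0.51.

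Class I antigen processing genes outside the 38 went both ways. Of 22, 7 were higher and 7 lower in CK (63.6%), and 3 higher and 5 lower in KO (36.4%). The CK share is near the 62.9% of all tested genes and the KO share is below their 51.2%. CK was above KO for 6 and below it for 7 (59.1%), beside 62.2% of all tested genes. The MHC class I gene H2-Q4 rose by 0.63 in CK and fell by 0.47 in KO, and the class I-like gene H2-M3 rose by 0.56 in CK. H2-K2 fell by 0.72 in CK and by 0.86 in KO, both with means below the filter level. Hfe, a class I-like regulator of iron uptake, rose by 1.32 in KO. For Mr1, which presents vitamin B metabolites, CK minus KO was 0.87. MHC class I genes are close copies of each other, so signal may be shared between them. Of 9 MHC class II genes 2 were tested, and Cd74, the class II invariant chain, read 8.16 ± 0.16 in CK, 6.38 ± 0.18 in KO and 8.12 ± 0.08 in WT (SD, n = 3). It fell by 1.74 in KO (limma adjusted p = 1.79e-07), where all 3 arrays lay below the filter level, so this is a difference of measured signal. The class II transactivator Ciita read 6.04 to 6.07.

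Of 15 feedback inhibitors 5 rose and 3 fell in CK (53.3%), and 6 rose and 6 fell in KO (80%). CK was above KO for 6 and below it for 4 (66.7%). All tested genes gave 62.9%, 51.2% and 62.2%. Socs2, a suppressor of cytokine receptor signalling, read 9.64 ± 0.20 in CK, 6.97 ± 0.11 in KO and 8.52 ± 0.14 in WT (SD, n = 3). It rose by 1.13 in CK (limma adjusted p = 5.37e-06) and fell by 1.55 in KO (adjusted p = 6.09e-07), where its mean lay below the filter level. Cish, a suppressor of the same family, rose by 0.52 in CK and fell by 0.40 in KO, where its mean also lay below that level. Tnfaip3, the NF-kB inhibitor A20, fell by 0.78 in CK and by 0.64 in KO. For Pias3 CK minus KO was -0.56.

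Chemokines and surface ligands that interferon induces included wide differences. Of 9 tested, 5 rose and 3 fell in CK (88.9%), and 2 rose and 5 fell in KO (77.8%). CK was above KO for 5 and below it for 1 (66.7%). Beside these shares of 9 genes stand 62.9%, 51.2% and 62.2% of all tested genes. Cxcl10, a T cell attractant, read 10.34 ± 0.49 in CK, 6.76 ± 0.12 in KO and 7.46 in WT, where the 3 arrays held equal values (SD, n = 3), and rose by 2.88 in CK (limma adjusted p = 3.49e-07). Ccl5 rose by 1.43 in CK (adjusted p = 6.78e-07). Icam1, an adhesion molecule, fell by 2.60 in CK and by 3.96 in KO (adjusted p = 2.64e-10 and 1.66e-11). Ccl7, a monocyte attractant, fell by 3.56 in KO, and CK minus KO was 4.14. Il15ra rose by 0.66 in KO. The WT level of Cxcl10 and the KO levels of Cxcl10 and Ccl7 lay within about 0.5 of the filter level, so these are differences of measured signal.

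**Figure D4:**
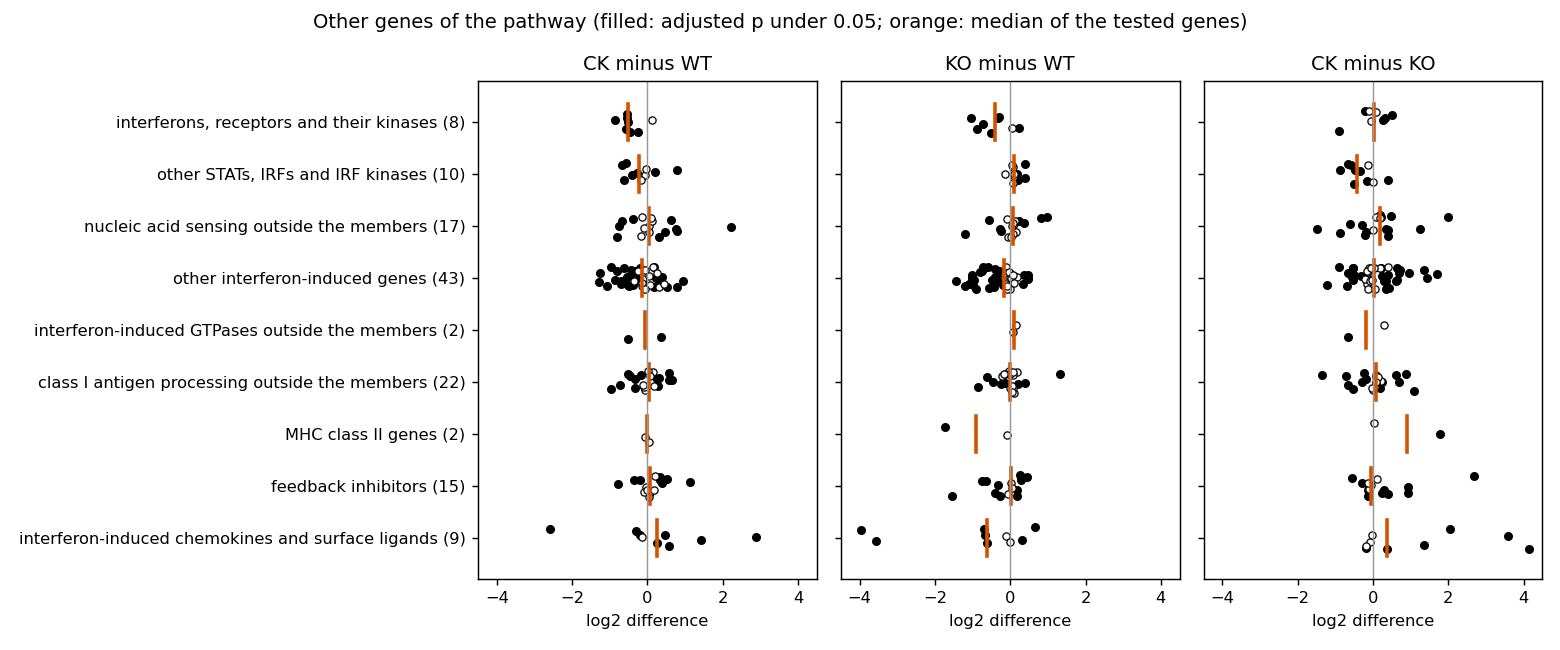
Log2 differences (horizontal axes) of the 128 tested genes in 9 lists of the pathway outside the 38 genes, with the number tested in brackets, for CK minus WT, KO minus WT and CK minus KO. Points are genes, filled where the adjusted p was under 0.05, orange bars are medians, and receptors and kinases lie mostly left of 0 in both comparisons with WT.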

How the data were processed

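The deposited table holds 34760 probe sets on 9 Affymetrix arrays as log2 RMA values made by the authors in affy, per the submitters' processing notes; its version was not given. RMA makes the distributions of arrays alike, which hides a change in total RNA per cell. The values had lost their decimal mark. The mark was put after the second digit of strings starting with 1 and after the first digit of all others, which gave 4.28 to 14.44. In 2242 pairs of a genotype and a probe set that lie across 10, the median range was 0.263 after this step and 8.92 without it.

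Each gene was read from its brightest probe set with 1 symbol, and the 11962 genes whose mean reached the 40th percentile (7.24) were tested with limma 3.58.1 in R 4.3.3, 1 coefficient per genotype and no replicate block, adjusted over all of them. The number of arrays limits the precision. In simulated data for KO versus WT over 11962 genes, 50 genes were changed at each size. There the fit recovered 34% of changes of 0.25, 80% of changes of 0.5 and 96% of changes of 1. The real fit called 51.2% of genes, which loosens the threshold set by the adjustment. These shares therefore do not measure what the real fit recovers. Promoter sequences and names came from RefSeq. The 38 genes and all lists were chosen with earlier results of these data known. Every one of the 38 is named, with each array's value for up to 4 called genes of a role with the widest range, while Bst2, Irf7 and Gbp3 were added to these after their values were seen. From other lists the 3 called genes with the smallest p in each comparison are named, and the interferon genes, Ciita and Ifit3b were added after their values were seen.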

Additional observations from a re-analysis of the deposited data

How the results depend on the processing

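The alternatives changed no direction of a called gene among the 38. Of 1347 differences recomputed for the 27 tested genes under 17 settings, 1283 kept their side of the threshold, 50 lost a call and 14 gained one, and calls that change when 1 array is left out stand beside the gene. With the filter at the 60th percentile, which tests fewer genes, 4 of the 38 were lower in KO than in WT, and 7 were higher and 6 lower in CK than in KO. With a difference of at least 1 also required, which by construction keeps large differences, 1293 genes were called between CK and WT, with 3 of the 38 higher and 1 lower. Under the same rule 1049 were called between KO and WT, with 0 of the 38 higher and 3 lower, and 1489 between CK and KO, with 3 higher and 0 lower. Leaving out 1 array gave 8 to 10 higher and 9 to 12 lower in CK than in WT, 6 higher and 7 to 10 lower in KO than in WT, and 8 to 12 higher and 9 to 12 lower in CK than in KO. The labels do not say what a replicate number marks. Deviations of same-numbered arrays correlated between -0.303 and 0.361 over tested genes, with all 3 values above 0 for KO and WT. Arrays of KO and WT with different numbers correlated between -0.339 and 0.252. For CK and WT all 3 same-numbered values were below 0. The numbers were not taken as pairs in the main fit. Replicate 3 was nonetheless the lowest array for 23 CK, 19 KO and 18 WT values of the 27 genes, and shared handling by number was not tested. With the replicate number as a block 7377, 5979 and 7291 genes were called in CK versus WT, KO versus WT and CK versus KO, and of the 38 genes 9, 6 and 12 were higher and 11, 9 and 11 lower. In that fit CK versus WT lost Adar (adjusted p = 0.0526) and gained Parp14 (0.0128), and CK versus KO gained Dhx58 (0.0317). Without the filter CK versus WT lost Oasl2 (limma adjusted p = 0.0838), and CK versus KO lost Trim21 (0.0719) and gained Adar (0.0438). With arrays centred on their medians CK versus WT lost Adar (0.133) and CK versus KO lost Trim21 (0.0562). With a variance trend and robust fit CK versus WT lost Adar (0.0583) and gained B2m (0.0231). With only the 6 arrays compared CK versus WT lost Adar (0.0816) and Oasl2 (0.0619) and gained Parp14 (0.0410). There CK versus KO lost Trim21 (0.0648). Low signal limits Usp18, Oasl2, Dhx58 and Oas1a in KO and Ifih1 and Oas1a in WT, whose means lie below the filter level.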
